A study of Homo sapiens with 8 samples.

Results

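The comparison described here is the response to prednisolone on the arrays labelled BTG1 shRNA, with 2 arrays of cells exposed to prednisolone for 8 h set against 2 arrays of cells exposed to vehicle for 8 h. The 4 arrays were chosen by their titles from the 8 of the study, and all 17881 transcript clusters of the array design were compared. The cells are labelled RS4;11, a line of B-cell precursor acute lymphoblastic leukemia that carries an MLL fusion gene, and were transduced with a short hairpin RNA (shRNA) against BTG1, which encodes an antiproliferative protein of the BTG/TOB family. The other 4 arrays are of cells labelled RS4;11 that carry a control shRNA vector, with 2 arrays each for vehicle and prednisolone at the same time. The design asks how knockdown of BTG1 alters the changes that prednisolone makes in gene expression. The prednisolone dose, the hairpin sequence, and whether the transduced cells were a pool or a clone are not given in the labels. The labels do not say that same-group arrays were separate cultures. P-values and intervals therefore cover the scatter of same-group arrays alone, with the control arrays included, and that scatter may be technical.

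Prednisolone is a synthetic glucocorticoid and a backbone of treatment for acute lymphoblastic leukemia. It binds the glucocorticoid receptor, encoded by NR3C1, which is held by chaperones in the cytoplasm, moves to the nucleus once bound, and raises or lowers transcription of its target genes. Among its widely shared targets are TSC22D3, which encodes the leucine zipper protein GILZ, FKBP5, a chaperone partner that dampens the receptor, SGK1, a kinase, and PER1, a clock protein. In lymphoid leukemia cells the response can raise NR3C1 itself, which is called autoinduction, and BCL2L11, the gene of the cell death activator BIM.

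Values are log2 expression levels, and every difference below is the mean of the prednisolone arrays minus the mean of the vehicle arrays unless said otherwise. Among the 4 arrays the correlation over all clusters was 0.982 to 0.995. The second prednisolone array lay nearer to both vehicle arrays (median absolute difference 0.15 and 0.13) than to the first prednisolone array (0.25), while the vehicle arrays differed from each other by 0.18. Of 13 measured T-cell markers 11 to 12 lay above the 75th percentile of each array labelled BTG1 shRNA, with a mean of 8.57 to 8.81 against 4.18 to 4.88 on the control arrays. Of 19 B-lineage markers 0 lay above that percentile on any array labelled BTG1 shRNA, with a mean of 3.99 to 4.24 against 7.26 to 7.82 on the control arrays. These markers go against the RS4;11 label, so the 4 arrays are called the arrays labelled BTG1 shRNA. Over the 4 arrays labelled BTG1 shRNA the marker mean was 4.09 to 4.23 for NK and cytotoxic cells, 4.01 to 4.44 for myeloid cells, 4.05 to 4.58 for erythroid cells with platelets and 5.13 to 5.34 for stromal with epithelial cells.

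No cluster on the arrays labelled BTG1 shRNA passed an adjusted p of 0.05 with prednisolone (0 of 17881, 0%, limma with Benjamini-Hochberg adjustment, smallest adjusted p 1). At an unadjusted limma p below 0.05 there were 186 clusters (1.04%), of which 125 were higher (0.699%) and 61 lower (0.341%) with prednisolone. The study's selection of over 2-fold, which is no test, took 25 clusters higher (0.140%) and 13 lower (0.0727%). Between single arrays, 107 clusters differed by over 2-fold for the vehicle pair and 332 for the prednisolone pair. Pairs of 1 vehicle and 1 prednisolone array differed by over 2-fold for 56 to 458 clusters. Single arrays vary more than means of 2 arrays, so these counts are not on the scale of the 25 and 13. Of the 25 higher clusters, 20 were below the unadjusted threshold and 10 were over 2-fold on each prednisolone array. Of the 13 lower clusters, 4 were below that threshold and 3 were over 2-fold on each array. The total of 38 was 280 without the second prednisolone array and 75 without either of the vehicle arrays. On the control arrays the same fit called 166 clusters higher (0.928%) and 105 lower (0.587%). Since nothing on the arrays labelled BTG1 shRNA passed the adjusted test, the genes below are given as measured differences with their standard error (SE) and not as changes. Each SE and interval comes from a fit to the arrays of both shRNAs. It therefore carries the scatter of the control arrays too, and is not the scatter on the arrays labelled BTG1 shRNA alone.

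NR3C1, the glucocorticoid receptor gene, read 7.77 and 7.12 on the vehicle arrays labelled BTG1 shRNA and 7.25 on each prednisolone array. The prednisolone values lay inside the vehicle range, and the difference was -0.20 (SE 0.28, 95% interval -0.84 to 0.45). NR3C1 differed on the control arrays by 0.79 (SE 0.28, limma adjusted p = 0.269). The difference between these effects was not called (limma adjusted p = 0.532). The mineralocorticoid receptor NR3C2, a close relative, differed by 0.06. Of 11 measured genes of the receptor and its chaperones 2 were above 0, and the median was -0.20 against 0.03 over all clusters. Their arrays did not overlap for 2 genes, both lower, where 18.0% of all clusters did not overlap and were higher and 10.5% did not overlap and were lower. These were HSPA8 (-0.30), the constitutive HSP70, and HSP90AA1 (-0.22), the inducible HSP90. FKBP4, a chaperone partner that helps the receptor into the nucleus, differed by -0.23. The 16 measured nuclear receptor coregulators had a median of -0.13, from -0.46 for the coactivator NCOA1 to 0.16 for the methyltransferase EHMT2. Without the first prednisolone array the coregulator median was 0.02 and that of the receptor and chaperones -0.08. Without the second vehicle array they were -0.04 and -0.07, and after quantile normalization -0.05 and -0.08.

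The cluster of the targeted gene, annotated to both BTG1 and LINC01619, read 7.15 and 7.42 with vehicle and 8.14 and 7.80 with prednisolone. Both prednisolone arrays were above both vehicle arrays, by 0.68 (SE 0.20, 95% interval 0.22 to 1.14). On the control arrays the same cluster rose by 1.26 (limma adjusted p = 0.0288), and the difference between these effects was not called (adjusted p = 0.537). The cluster of PRMT1, a BTG1 partner and protein arginine methyltransferase, and ADM5 differed by -0.35 (SE 0.25). Among the other 11 measured members of the BTG/TOB family and the CCR4-NOT and PAN deadenylases, which shorten the poly(A) tails of mRNAs, the median was -0.02. The range ran from -0.38 for BTG3 to 0.31 for PAN2, and 0 of 11 were below an unadjusted p of 0.05.

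TSC22D3, which encodes GILZ, stood out among the shared glucocorticoid targets. It read 4.29 and 4.18 with vehicle and 5.31 and 5.14 with prednisolone, so that the arrays did not overlap. The difference was 0.99 (SE 0.17, 95% interval 0.60 to 1.38). TSC22D3 rose by 2.67 on the control arrays (limma adjusted p = 0.00118). The difference between these effects, -1.68, was not called (limma adjusted p = 0.0705). DDIT4, an inhibitor of mTOR signalling also called REDD1, read 4.44 and 4.59 with vehicle and 5.73 and 5.18 with prednisolone, a difference of 0.94 (SE 0.29). GLUL, glutamine synthetase, read 6.71 and 6.60 against 7.37 and 6.98, a difference of 0.52 (SE 0.20). PIK3IP1, an inhibitor of PI3 kinase, read 4.02 and 3.86 against 4.62 and 4.72, a difference of 0.73 (SE 0.21). For these 3 genes too both prednisolone arrays were the higher ones.

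**Figure D1:**
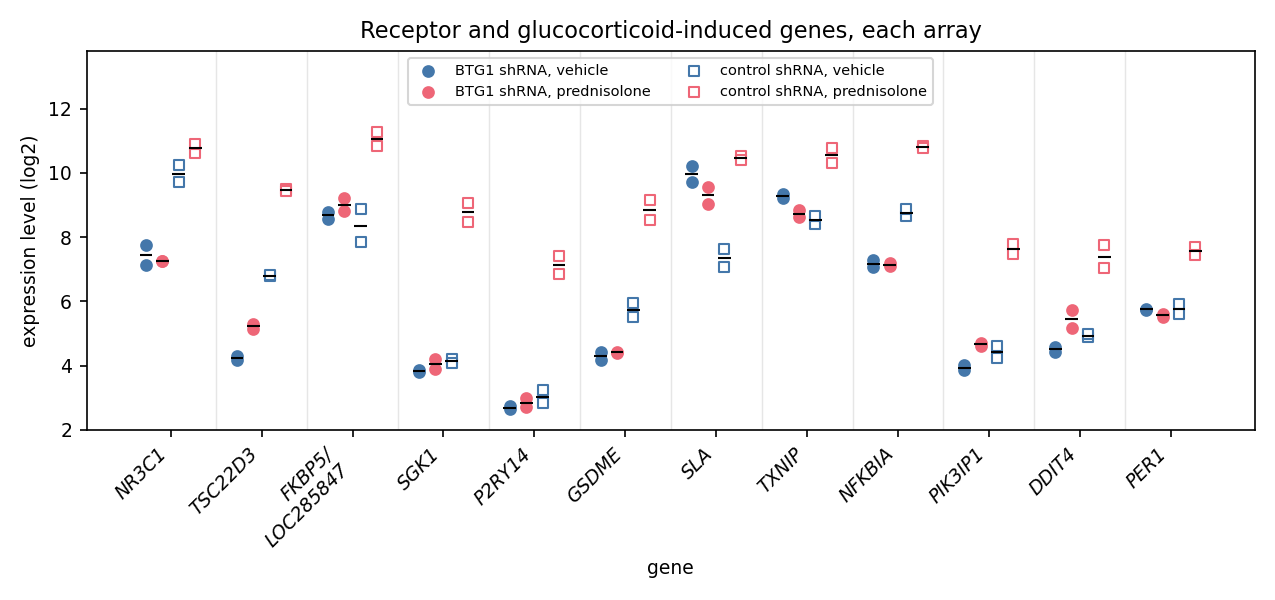
Expression level (log2, vertical axis) of the receptor gene and 11 glucocorticoid-induced genes or clusters (horizontal axis) on each of the 8 arrays, with filled circles for arrays labelled BTG1 shRNA, open squares for control shRNA, blue for vehicle, red for prednisolone and a black line for each group mean. TSC22D3 was higher by 0.99 on the filled circles and by 2.67 on the open squares, while SGK1 differed by 0.22 and 4.64. The difference between the effects was not called for TSC22D3 (limma adjusted p = 0.0705).

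Other classic targets showed small differences. SGK1 read 3.85 and 3.81 with vehicle and 3.91 and 4.20 with prednisolone, a difference of 0.22 (SE 0.23, 95% interval -0.33 to 0.77, or at most 1.7-fold higher). The arrays did not overlap, but the difference was smaller than the gap of the prednisolone arrays from each other. The cluster of FKBP5 and LOC285847 read 8.78 and 8.57 against 8.80 and 9.22, a difference of 0.34 (SE 0.35). That SE also carries the control vehicle arrays, which read 7.85 and 8.86, further apart than either pair here. PER1 read 5.73 and 5.77 against 5.52 and 5.62, a difference of -0.18 (SE 0.19), so both prednisolone arrays were the lower ones. NFKBIA, the inhibitor of NF-kB, differed by -0.03 and KLF9, a transcription factor, by 0.17. DUSP1, a MAP kinase phosphatase, differed by 0.19, with both prednisolone arrays above both vehicle arrays.

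TXNIP, a brake on glucose uptake and thioredoxin, read 9.35 and 9.23 with vehicle and 8.84 and 8.62 with prednisolone. Both prednisolone arrays were lower, by a difference of -0.56 (SE 0.22, 95% interval -1.07 to -0.05), whereas on the control arrays TXNIP rose by 2.00 (limma adjusted p = 0.00723). The difference of the effects was -2.56 (limma adjusted p = 0.0441). The promoter of TXNIP is shown because it is the only one among the glucocorticoid-induced genes whose 250 bases before the start hold the glucocorticoid response element searched for on either strand, a palindrome of inverted half-sites around a short spacer. This motif was found before 109 of 27305 genes (0.399%) in the RefSeq promoters of GRCh38.p14, and before 1 of 22 general and 1 of 21 lymphoid list genes with an entry, TXNIP in both cases. The sequence is chr1:145996580-145996829 on the minus strand, written 5′ to 3′ of the gene, with the match in capitals starting 175 bases before the start.
TXNIP: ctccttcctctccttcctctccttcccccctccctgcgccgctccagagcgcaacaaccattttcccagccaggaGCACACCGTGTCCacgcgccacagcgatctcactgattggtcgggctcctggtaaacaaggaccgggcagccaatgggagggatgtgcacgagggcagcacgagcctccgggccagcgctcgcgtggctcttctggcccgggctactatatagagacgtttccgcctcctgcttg
The match is a description of these letters only.

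Counted together, the 27 measured general glucocorticoid-induced genes had a median of 0.15, against 0.03 over all clusters, and 0.08 against 0.01 after quantile normalization. Of them 11 were higher without overlap (18.0% of all clusters) and 3 lower (10.5% of all clusters), so the lower count is near the share over all clusters. Below an unadjusted limma p of 0.05, TSC22D3, DDIT4 and GLUL were higher and TXNIP lower, where 0.699% and 0.341% of all clusters were. On the control arrays the same list had a median of 0.57, against -0.16 over all clusters. There 9 of its genes were called higher, where 0.928% of all clusters were. The 27 measured genes known from lymphoid leukemia had a median of 0.11. It was 0.04 without the first prednisolone array, 0.19 without the second vehicle array and 0.06 after quantile normalization. Without overlap 8 were higher and 3 lower, where 18.0% and 10.5% of all clusters were. The median was 1.20 on the control arrays with 11 called higher, where 0.928% of all clusters were. Below the unadjusted threshold were PIK3IP1, DDIT4, PFKFB2 (0.58), which raises the glycolysis activator fructose bisphosphate, and ZFP36L2 (0.55), an mRNA decay factor. GZMA and TXNIP were the lower ones. WFS1, a membrane protein of the endoplasmic reticulum, read 5.19 and 4.75 against 6.08 and 5.68, a difference of 0.91 with a wide SE of 0.42. On the first prednisolone array the general list's median stood 0.28 above the vehicle mean and on the second 0.10.

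Genes of cholesterol synthesis, which include the regulator INSIG1, were the list with the highest median of the 47 described. This pathway builds cholesterol from acetyl-CoA through mevalonate, isoprenoids, squalene and lanosterol, and its genes are driven together by the transcription factor SREBP2 when membrane sterol is low. Of 15 measured genes 13 were higher without overlap between the arrays and 1 was lower, 5 were over 2-fold higher, and 7 were below an unadjusted limma p of 0.05, all higher. Over all clusters these shares were 18.0%, 10.5%, 0.140% and 0.699%. The median was 0.66 against 0.03 over all clusters. It was 0.61 on the first prednisolone array and 0.76 on the second, and 0.77 after quantile normalization. The list's median on the control arrays was -0.12, with 0 called.

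At the mevalonate steps, HMGCS1, HMG-CoA synthase, read 9.72 and 9.58 with vehicle and 10.82 and 11.14 with prednisolone, a difference of 1.33 (SE 0.40). MVK, mevalonate kinase, read 6.26 and 6.62 against 7.78 and 7.52, a difference of 1.21 (SE 0.23, 95% interval 0.66 to 1.75). MVD, which decarboxylates mevalonate diphosphate, read 8.11 and 8.09 against 9.65 and 9.35, a difference of 1.40 (SE 0.26, 95% interval 0.79 to 2.01). For each of these enzymes the lowest prednisolone array was above the highest vehicle array. PMVK, which acts between MVK and MVD, differed by -0.04 (SE 0.21). FDPS, farnesyl diphosphate synthase, differed by 0.34, and IDI1, the isomerase before it, by 0.61.

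Past squalene, SQLE, squalene epoxidase, differed by 0.61 (SE 0.34). LSS, lanosterol synthase, read 8.79 and 9.03 with vehicle and 10.14 and 9.91 with prednisolone, a difference of 1.11 (SE 0.18, 95% interval 0.69 to 1.54). Both prednisolone arrays stood clear of both vehicle arrays. MSMO1, a sterol demethylation enzyme, read 8.27 and 7.88 against 9.05 and 9.56, a difference of 1.23 with an SE of 0.60. DHCR7, which makes cholesterol from its direct precursor, read 10.66 and 10.98 against 11.61 and 11.45, a difference of 0.71 (SE 0.21), and EBP, a sterol isomerase, differed by 0.53 (SE 0.22). INSIG1, which holds SREBP in the endoplasmic reticulum and is itself an SREBP target, read 8.86 and 8.81 against 9.74 and 9.75, a difference of 0.91 (SE 0.23). These differences went one way on both arrays for all of these genes.

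The effect of prednisolone on LSS was -0.61 on the control arrays, so the difference between the effects was 1.72 (95% interval 1.13 to 2.32, limma adjusted p = 0.0717). For MVD the control effect was -0.48 and the difference 1.88 (95% interval 1.01 to 2.74, adjusted p = 0.169). Neither passed the adjusted test, and 0 of the 15 genes did. MSMO1, IDI1 and SC5D had control effects of 1.34, 0.57 and 0.63, close to their 1.23, 0.61 and 0.64 on the arrays labelled BTG1 shRNA. ACSS2, which is outside the list and makes acetyl-CoA from acetate, read 4.39 and 4.57 with vehicle and 5.77 and 5.81 with prednisolone. The difference was 1.31 (SE 0.19, 95% interval 0.86 to 1.76), and on the control arrays ACSS2 differed by 0.53. The spelled sterol regulatory element TCACNCCAC was found on either strand in the 250 bases before 297 of 27305 genes (1.09%) and before 0 of the 14 cholesterol genes with a promoter entry.

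SLC7A11, the cystine transporter subunit xCT, had the smallest p on these arrays. It read 4.35 and 4.66 with vehicle and 7.28 and 7.18 with prednisolone, a difference of 2.73 or 6.62-fold (SE 0.38, 95% interval 1.85 to 3.61). The gap between the groups was far wider than the spread within either. On the control arrays SLC7A11 rose by 2.99 (limma adjusted p = 0.0126), and the difference of the effects was -0.26 (95% interval -1.51 to 0.99). SLC7A11 is a target of ATF4, the transcription factor that answers amino acid shortage and other stresses by raising amino acid transporters, synthesis enzymes and tRNA ligases.

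Of 25 measured genes of the ATF4 amino acid response 17 were higher without overlap and 0 lower, 4 were over 2-fold higher, and 11 were below an unadjusted limma p of 0.05, all higher, where the shares over all clusters were again 18.0%, 10.5%, 0.140% and 0.699%. The median was 0.50, against 0.03 over all clusters, with 0.53 on the first and 0.42 on the second prednisolone array. The list had the same median of 0.50 on the control arrays, where 3 of its genes and 0.928% of all clusters were called higher. Among the transporters, SLC7A5, the large neutral amino acid carrier LAT1, read 9.84 and 10.15 with vehicle and 10.94 and 10.60 with prednisolone, a difference of 0.78 (SE 0.21). Its partner SLC3A2, which also pairs with SLC7A11, read 9.03 and 9.33 against 9.88 and 9.56, a difference of 0.54 (SE 0.22). SLC1A5, a glutamine carrier, differed by 0.36.

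Among the enzymes, PSAT1 of serine synthesis read 8.47 and 9.52 with vehicle and 10.79 and 10.08 with prednisolone, a difference of 1.44 with an SE of 0.54. MTHFD2, a mitochondrial folate enzyme, differed by 0.71 (SE 0.30), and PCK2, mitochondrial PEP carboxykinase, by 0.83 (SE 0.23). AARS1, the alanine tRNA ligase, read 9.44 and 9.70 against 10.51 and 10.33, a difference of 0.85 (SE 0.18, 95% interval 0.42 to 1.28). CHAC1, which degrades glutathione, read 6.15 and 5.57 against 7.03 and 6.75, a difference of 1.03 (SE 0.33). ATF3, a stress transcription factor, read 4.54 and 4.48 against 5.04 and 5.02, a difference of 0.52 (SE 0.18). For these 6 genes both prednisolone arrays were above both vehicle arrays.

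Several members showed small differences. ATF4 mRNA itself read 6.70 and 6.74 with vehicle and 6.98 and 6.53 with prednisolone, a difference of 0.04 (SE 0.20). ASNS, asparagine synthetase, differed by 0.24 (SE 0.29), PHGDH, the entry enzyme of serine synthesis, by 0.23, and WARS1, the tryptophan tRNA ligase, by 0.01. DDIT3, which encodes CHOP, differed by 0.20, with both prednisolone arrays the higher ones, against a rise of 1.77 on the control arrays (limma adjusted p = 0.00678). VLDLR, a lipoprotein receptor, read 6.02 and 6.51 against 7.51 and 7.49, a difference of 1.23 (SE 0.23). SESN2, a sestrin that restrains mTORC1, read 6.10 and 6.12 against 6.73 and 6.71, a difference of 0.61 (SE 0.18). Both of these were higher on each prednisolone array.

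**Figure D2:**
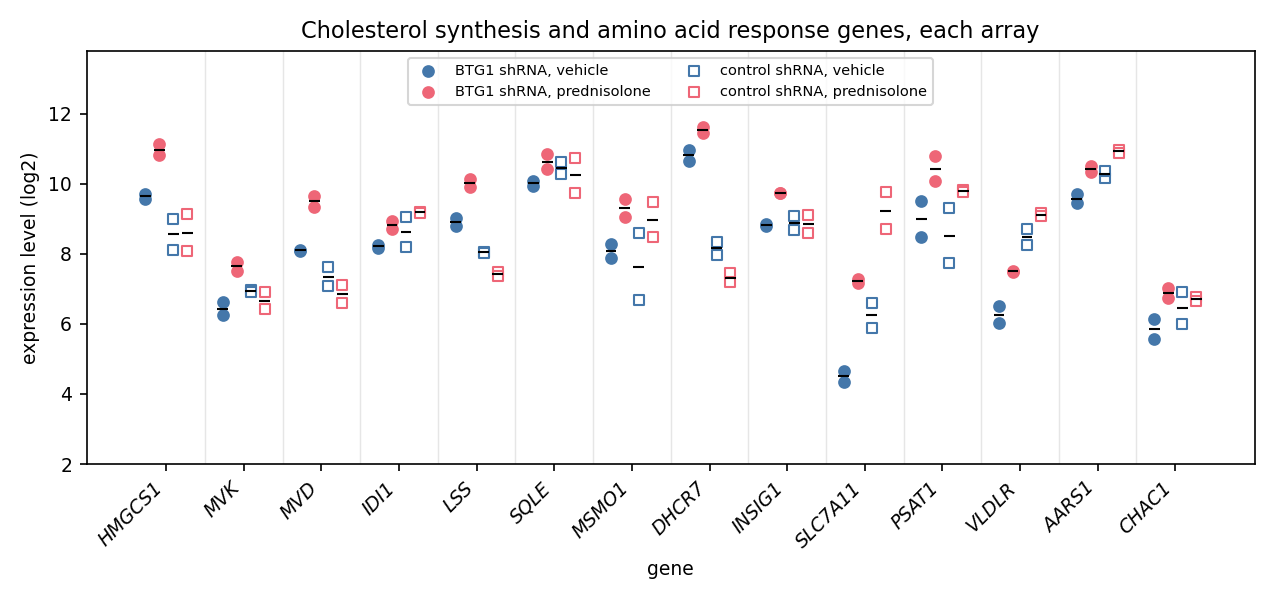
Expression level (log2, vertical axis) of 9 cholesterol genes and 5 amino acid response genes (horizontal axis) on each of the 8 arrays. Filled circles are arrays labelled BTG1 shRNA, open squares control shRNA, blue vehicle and red prednisolone, with a black line for each group mean. LSS and MVD were higher by 1.11 and 1.40 on the filled circles and differed by -0.61 and -0.48 on the open squares, while SLC7A11 differed by 2.73 and 2.99.

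The C/EBP-ATF response element, spelled TGATGNAA on either strand, was found in the 250 bases before 5 of the 22 amino acid response genes with a promoter entry (22.7%), against 1061 of 27305 genes (3.89%). The 5 were AARS1, ASNS, ATF3, CHAC1 and SLC1A5. The 3 of them below an unadjusted p of 0.05 on these arrays are shown, from RefSeq on GRCh38.p14, written 5′ to 3′ of the gene with the match in capitals. CHAC1 lies at chr15:40953221-40953470 on the plus strand with its match starting 209 bases before the start, AARS1 at chr16:70289507-70289756 on the minus strand with its match at 187, and ATF3 at chr1:212565157-212565406 on the plus strand with its match at 191. In CHAC1 and AARS1 the motif is on the opposite strand and so reads TTGCATCA.
CHAC1: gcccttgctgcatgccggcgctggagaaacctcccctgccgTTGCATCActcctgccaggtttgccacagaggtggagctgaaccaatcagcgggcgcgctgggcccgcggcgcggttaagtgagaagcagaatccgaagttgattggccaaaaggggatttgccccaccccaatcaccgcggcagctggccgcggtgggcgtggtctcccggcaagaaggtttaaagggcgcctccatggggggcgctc
AARS1: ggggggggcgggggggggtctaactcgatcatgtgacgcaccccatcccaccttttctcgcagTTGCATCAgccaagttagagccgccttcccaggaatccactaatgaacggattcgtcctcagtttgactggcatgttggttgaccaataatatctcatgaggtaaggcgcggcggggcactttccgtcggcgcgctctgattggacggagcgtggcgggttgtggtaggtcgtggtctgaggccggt
ATF3: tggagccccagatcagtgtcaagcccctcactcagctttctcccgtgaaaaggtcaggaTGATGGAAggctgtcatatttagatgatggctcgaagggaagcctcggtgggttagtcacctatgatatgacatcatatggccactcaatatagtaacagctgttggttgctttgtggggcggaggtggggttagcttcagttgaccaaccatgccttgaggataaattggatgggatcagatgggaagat
SLC7A11 and VEGFA are named only. The motif was also present before ASNS and SLC1A5, whose differences were 0.24 and 0.36, so genes with the letters showed both larger and smaller differences.

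Further genes with small p-values lay outside the lists described so far. RUNX2, TP53INP1 and BHLHE40 belong to the MLL-fusion, p53 and circadian clock lists given below. VEGFA, a growth factor for blood vessels, read 5.28 and 4.78 with vehicle and 6.55 and 6.35 with prednisolone, a difference of 1.42 (SE 0.21, 95% interval 0.93 to 1.92). RUNX2, a transcription factor of bone and lymphoid cells, read 6.21 and 6.01 against 7.04 and 7.03, a difference of 0.93 (SE 0.18). TP53INP1, a p53 target that promotes autophagy, read 4.40 and 4.84 against 5.52 and 5.50, a difference of 0.89 (SE 0.20). BHLHE40, a repressor within the circadian clock, read 4.66 and 4.57 against 5.41 and 5.33, a difference of 0.76 (SE 0.21). In each of them the prednisolone arrays were the higher ones and close to each other. On the control arrays VEGFA, RUNX2 and TP53INP1 differed by 0.82, 1.06 and 1.49, and BHLHE40 by -0.29.

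The lower side was weaker: of the 50 clusters with the smallest p, 39 were higher and 11 lower. PRR3, a zinc finger protein, read 8.49 and 8.21 with vehicle and 7.15 and 7.77 with prednisolone, a difference of -0.89 (SE 0.24, 95% interval -1.45 to -0.33). SVBP, a partner of the vasohibin tubulin peptidases, read 5.14 and 4.64 against 3.64 and 3.75, a difference of -1.19 (SE 0.33). PTPN6, the phosphatase SHP-1 that restrains antigen receptor signalling, read 9.54 and 9.66 against 9.10 and 8.89, a difference of -0.60 (SE 0.18). Both prednisolone arrays were lower in each case. On the control arrays PTPN6 was called lower, with a difference of -0.96 (limma adjusted p = 0.0491). PRR3 differed there by -0.95 (limma adjusted p = 0.131) and SVBP by 0.42 (0.503). GZMA, the protease granzyme A of cytotoxic lymphocytes, read 4.87 and 4.90 against 3.56 and 4.31, a difference of -0.95 (SE 0.28). The 12 measured markers of NK and cytotoxic cells, which include GZMA, had a median of -0.03. OGN, a matrix proteoglycan, and CMAHP, a pseudogene of sialic acid synthesis, completed the 6 smallest p-values with differences of -0.71 and -0.95.

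Genes of cell death mostly showed small differences. BCL2L11 read 4.93 and 4.64 with vehicle and 4.80 and 5.13 with prednisolone, so the groups overlapped. It differed by 0.18 (SE 0.22, 95% interval -0.35 to 0.70), against 1.20 on the control arrays (limma adjusted p = 0.0539). The difference between these effects was not called (limma adjusted p = 0.437). BCL2, the inhibitor of apoptosis, differed by -0.14 (SE 0.29) and BCL2L1 by 0.04 (SE 0.21). The 12 measured pro-apoptotic BCL2 relatives had a median of 0.07, from -0.71 for BNIP3 (0.06 without the second prednisolone array) to 0.44 for PMAIP1, which encodes NOXA, and 0 were below an unadjusted limma p of 0.05. The 15 measured caspases and partners had a median of -0.00. BIRC5, in this list at -0.30, has another cluster at -0.78 (SE 0.23), with both prednisolone arrays the lower ones. Of 17 measured p53 targets 3 were below an unadjusted limma p of 0.05 and higher, where 0.699% of all clusters were. They were TP53INP1, SESN2 and CDKN1A (0.57), the cell-cycle inhibitor p21, and the list's median was 0.02.

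Cell division genes were on the lower side, mostly by the first prednisolone array. Of 18 measured G2/M genes 0 were above 0, where 58.1% of all clusters were, and 8 were lower without overlap, where 10.5% of all clusters were. Their median was -0.39, but -0.60 on the first prednisolone array and -0.18 on the second, and -0.16 without the second vehicle array. CDC20, an activator of the anaphase-promoting complex, read 10.67 and 10.51 with vehicle and 10.27 and 10.12 with prednisolone, a difference of -0.40 (SE 0.17, 95% interval -0.78 to -0.01). CCNB1, cyclin B1, read 10.78 and 10.57 against 9.74 and 10.32, with the first prednisolone array much the lower. The 19 measured replication-dependent histone genes, which have near-identical copies that probes may not separate, had a median of -0.30, with -0.82 on the first array and 0.04 on the second. The 22 measured genes of G1/S and DNA replication had a median of -0.26 (-0.14 without the first prednisolone array and -0.16 without the second vehicle array), with 10 lower and 1 higher without overlap, where 10.5% and 18.0% of all clusters were, and RRM2, a subunit of ribonucleotide reductase, at -0.44. MYC read 9.59 and 9.38 against 9.35 and 9.36, a difference of -0.13 (SE 0.19), and the 13 measured genes of MYC and ribosome biogenesis had a median of -0.18. The list medians for G2/M, histones and G1/S were also below 0 after quantile normalization, at -0.31, -0.20 and -0.17.

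**Figure D3:**
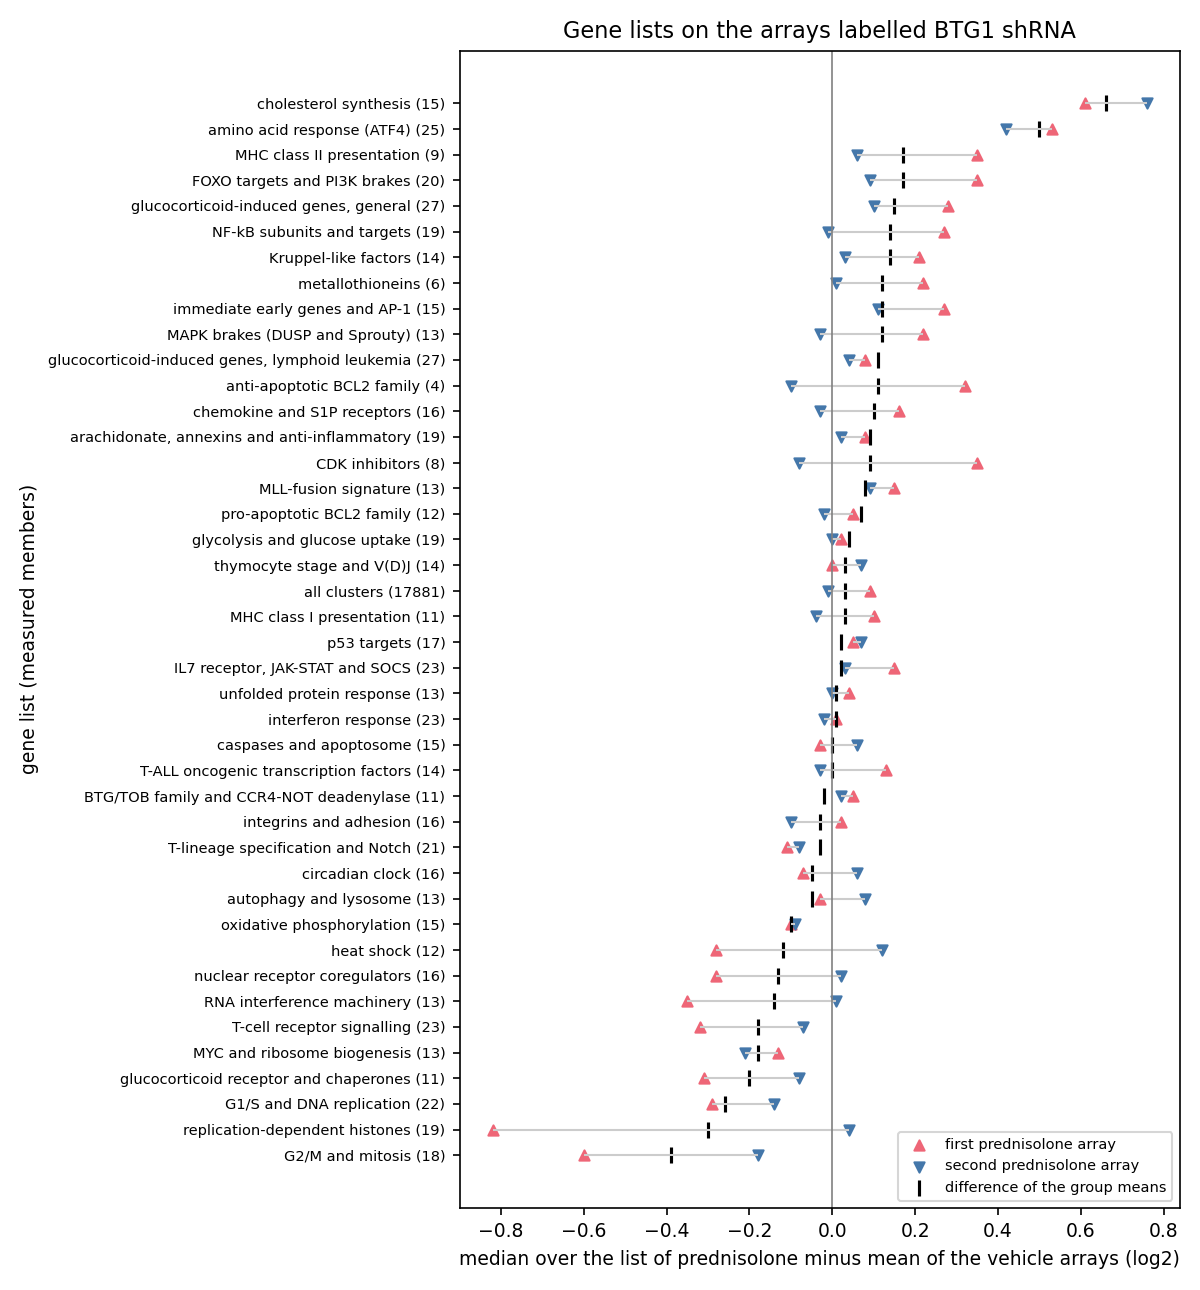
Median difference from the mean of the vehicle arrays labelled BTG1 shRNA (log2, horizontal axis) for each gene list (vertical axis, measured genes in parentheses), with upward triangles for the first prednisolone array, downward triangles for the second and a black tick for the difference of the group means. Cholesterol synthesis (0.61 and 0.76) and the amino acid response (0.53 and 0.42) lie apart from 0 on both arrays, while the histone genes (-0.82 and 0.04) do not.

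Lymphoid genes and the remaining pathways had medians between -0.18 and 0.17. Of all 47 lists, 19 had a median of the same sign without each of the 4 arrays in turn, and 28 had another sign or 0 without at least 1 of them. The 23 measured genes of T-cell receptor signalling had a median of -0.18, from -0.32 on the first prednisolone array and -0.07 on the second. Of them 6 were lower and 1 higher without overlap, where 10.5% and 18.0% of all clusters were, and CD3D, a subunit of the receptor complex, read 11.44 and 11.49 against 10.97 and 11.23. For thymocyte stage and V(D)J genes the median was 0.03, with CD1C, a lipid-presenting molecule, at -0.59 (SE 0.24). T-lineage specification and Notch genes had a median of -0.03, T-ALL oncogenic transcription factors -0.00, and genes of the IL7 receptor, JAK-STAT and SOCS 0.02. Medians were 0.17 for FOXO targets and PI3K brakes, 0.14 for NF-kB genes, 0.14 for Kruppel-like factors, 0.12 for immediate early genes and 0.12 for the MAPK brakes. ATF3, shared with the amino acid list, was the only immediate early gene below an unadjusted limma p of 0.05. Medians were 0.04 for glycolysis, -0.10 for oxidative phosphorylation, 0.01 for the unfolded protein response, -0.12 for heat shock and 0.01 for interferon response genes. In the last 3 of these lists 0 genes were below that threshold. Medians were 0.17 for MHC class II, 0.03 for class I, -0.05 for the circadian clock, 0.09 for CDK inhibitors, -0.14 for RNA interference genes, 0.12 for metallothioneins, -0.05 for autophagy and lysosome, 0.10 for chemokine receptors, -0.03 for integrins and 0.08 for MLL-fusion genes. Among 19 measured annexins and other anti-inflammatory genes the median was 0.09. ANXA1, annexin A1, a mediator of glucocorticoid anti-inflammatory action, read 7.14 and 7.80 with vehicle and 5.53 and 7.28 with prednisolone, so the groups overlapped, with a difference of -1.06 (SE 0.52).

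The response differed from that on the control arrays for 24 clusters, by a test of the difference itself (limma adjusted p below 0.05). It was lower on the arrays labelled BTG1 shRNA for 19 (0.106%) and higher for 5 (0.0280%), while 1664 were below an unadjusted p of 0.05 (9.31%). The 2 prednisolone comparisons share no array. The shRNA and the lineage profile cannot be told apart in this test. The count of 24 was 0 without any 1 of the 4 arrays labelled BTG1 shRNA or without the second control prednisolone array, 7 without the first control prednisolone array and 15 without the second control vehicle array. It was 52 without the dimmest 25% of clusters, 14 after centring each array, 8 without clusters that hold a value starting with 1 and 11 with array weights.

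The 8 named genes with the lower response rose on the control arrays, and 7 of them were within 0.5 of their vehicle level on the arrays labelled BTG1 shRNA. SGK1 had the largest difference of effects among genes with their own cluster, at -4.42 (95% interval -5.19 to -3.64, limma adjusted p = 0.00862), from 0.22 against 4.64. P2RY14, a receptor for UDP-sugars, differed by -3.92, with 2.64 and 2.75 under vehicle and 3.0 and 2.70 under prednisolone. RASSF4, a RAS association domain protein, differed by -3.90 and SLA, an adaptor that dampens antigen receptors, by -3.76. SLA read 9.71 and 10.22 with vehicle and 9.03 and 9.57 with prednisolone, lower on both arrays by -0.66, where the control arrays showed a rise of 3.10 (limma adjusted p = 0.00501). NDRG2 (-3.52), GSDME (-3.02), which encodes the pore-forming gasdermin E, CEMIP2 (-2.89) and RIN2 (-2.84) followed, with effects of -0.01, 0.09, 0.06 and 0.05 on the arrays labelled BTG1 shRNA.

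The 5 genes with the opposite difference fell on the control arrays and read near vehicle on those labelled BTG1 shRNA. IL1B, the cytokine interleukin-1 beta, differed by 3.41 (95% interval 2.70 to 4.12, limma adjusted p = 0.0174), reading 3.18 and 3.28 with vehicle and 3.62 and 3.26 with prednisolone. PRICKLE1, a planar polarity protein, differed by 3.38, PDGFRB, a growth factor receptor, by 2.36, PLAUR, the urokinase receptor, by 2.24 and GNAZ, a G-protein subunit, by 2.23. TRIB1, a pseudokinase with the next smallest p, differed by 2.03 (limma adjusted p = 0.066). The table has no detection calls, so it was not tested whether the low readings of genes such as P2RY14 and IL1B are above background.

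Over all clusters called on the control arrays, the values labelled BTG1 shRNA were small. These clusters were chosen by their control effect, so their control medians are large by selection. The values labelled BTG1 shRNA were not selected in this way. The 166 clusters called higher on the control arrays had a control median of 1.78. Their median was 0.11 on the arrays labelled BTG1 shRNA, from -0.66 to 2.73. Of them 148 were within 0.5 of 0, but this share was not counted over all clusters and so does not set them apart. Of the 166, 118 were above 0, where 58.1% of all clusters were, and 2 were over 2-fold higher. Below an unadjusted limma p of 0.05 were 16 of the 166, against 1.04% of all clusters. The 105 called lower had a control median of -1.38 and a median of 0.04 on the arrays labelled BTG1 shRNA. There 62 of the 105 were above 0, near the 58.1% of all clusters. Within 0.5 of 0 were 102 of the 105, again without a count over all clusters. The median over all clusters was 0.03 for the arrays labelled BTG1 shRNA and -0.16 for the control arrays, so the differences of effects are centred on 0.20 rather than 0.

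**Figure D4:**
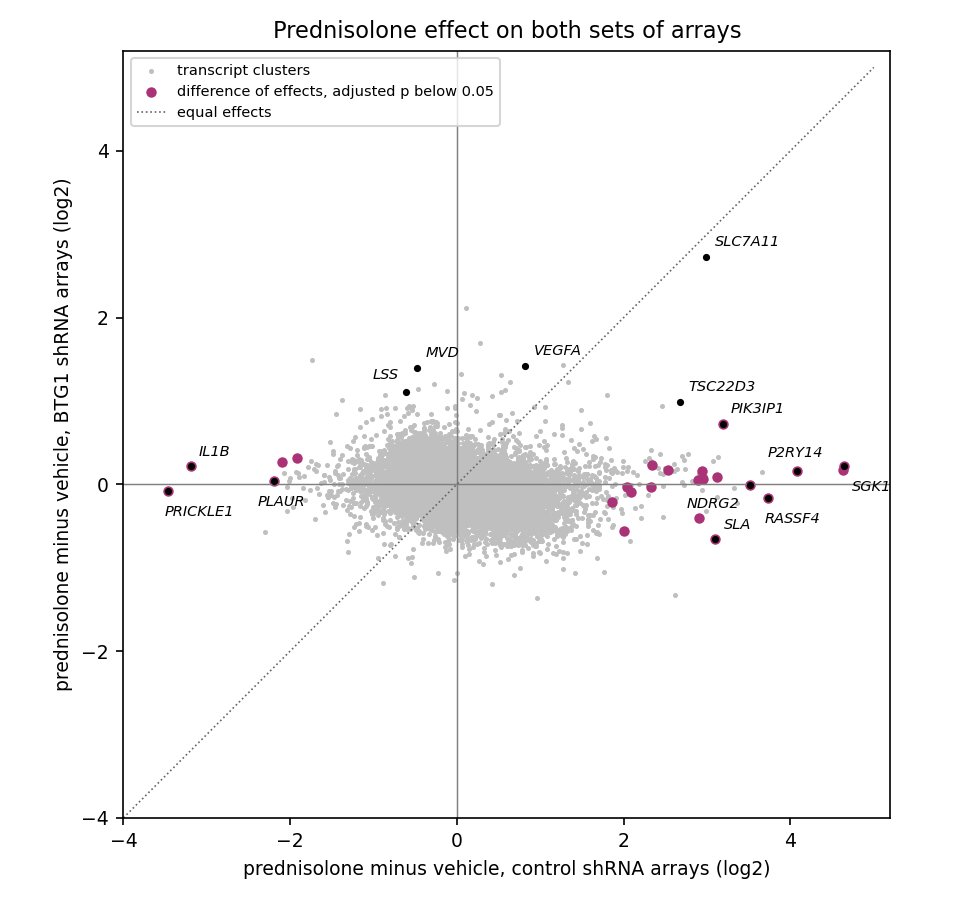
Prednisolone effect (log2, prednisolone minus vehicle) on the control shRNA arrays (horizontal axis) and on the arrays labelled BTG1 shRNA (vertical axis), 1 point per transcript cluster, with larger purple points where the difference of effects had an adjusted p below 0.05, black points for the genes that are named and a dotted line for equal effects. SLC7A11 (2.99 and 2.73) lies near the line, and SGK1 (4.64 and 0.22) lies along the horizontal axis.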

How the data were processed

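Total RNA of cells labelled RS4;11 was hybridised to 8 Affymetrix Human Exon arrays. Per the labels, probes were summarised over core meta-probe sets built on hg18, and the submitters' processing notes name RMA (robust multi-array averaging) and Partek. The authors deposited log2 values per transcript cluster, in which most decimal points had been lost: 153 of 143048 values kept one. Points were restored behind digit 1, or behind digit 2 in the 2831 values that began with 1, giving 2.16 to 13.43. The tests stayed as planned for log2 values, and 0 columns were left out. The number of arrays limits the precision.

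Platform annotation gave 1 symbol for 14432 clusters, several for 2408 and none for 1041, and 14404 matched RefSeq by gene ID. Genes were named from clusters with 1 symbol. BTG1, FKBP5 and PRMT1 share theirs with a second gene, which is given.

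A model of 4 group means was fitted to all 8 arrays and 17881 clusters with limma 3.58.1 in R 4.3.3 (lmFit, eBayes, 4 residual and 3.51 prior degrees of freedom). Benjamini-Hochberg adjustment ran over all clusters, with a threshold of 0.05. Named genes are the 12 with the largest difference in each direction among those called without overlap, or the 6 smallest p-values where fewer pass. For the difference of effects they are the 8 largest called, filled to 6. Always named are NR3C1, SGK1, TSC22D3, FKBP5, BTG1, PRMT1, BCL2, BCL2L11 and MYC. From each list the 6 members of smallest p could be named, and any further member was chosen for its role after its values were seen. Of 819 genes in 47 lists 659 were measured, and a gene's brightest cluster stood for it. Members and lists were chosen with earlier results of these data known. Lists are described by counts and medians, without a test. The script was tested on simulated data.

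Promoters are RefSeq's for GRCh38.p14, searched over 250 bases before the start. Alternatives were quantile normalization, median centring, a filter on dim clusters, the BTG1 arrays alone, a replicate block, limma trend, leaving out values that start with 1, limma treat, each array left out, and array weights, the last added after the data were seen.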

Additional observations from a re-analysis of the deposited data

Results flagged for a closer look

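Prednisolone effects that differ between the arrays labelled BTG1 shRNA and the control arrays, by the limma test of the difference itself, follow for 17 genes named by rule or held by a gene list, of 24 clusters called. In the list below a negative value means that prednisolone minus vehicle was lower on the arrays labelled BTG1 shRNA than on the control arrays. A positive value means that it was higher, and the genes with a positive value fell on the control arrays. The shRNA and the lineage profile of these arrays cannot be told apart.

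NDRG2 had a difference of -3.52 (adjusted p = 0.00847), SGK1 of -4.42 (0.00862), RASSF4 of -3.90 (0.00862) and P2RY14 of -3.92 (0.0174). SLA followed with -3.76 (0.0402), CEMIP2 with -2.89 (0.0415), RIN2 with -2.84 (0.0421) and GSDME with -3.02 (0.0441). PIK3IP1, an inhibitor of PI3 kinase, differed by -2.46 (0.0441), TXNIP by -2.56 (0.0441), the transcription factor KLF7 by -2.36 (0.0417) and the NF-kB inhibitor NFKBIA by -2.08 (0.0441). In the other direction PRICKLE1 differed by 3.38 (adjusted p = 0.00847), IL1B by 3.41 (0.0174), PLAUR by 2.24 (0.0402), GNAZ by 2.23 (0.0441) and PDGFRB by 2.36 (0.0477). PIK3IP1 was the only one of the 17 whose effect on the arrays labelled BTG1 shRNA was above 0.5, at 0.73. The other 7 clusters are SMIM3 (-2.77, adjusted p = 0.0246), WDR91 (-2.36, 0.0382), SLC31A2 (-2.17, 0.0441), MYRIP (-2.11, 0.0477) and the DNA methyltransferase DNMT3B (-2.08, 0.0494), 1 cluster shared by LILRA1 and LILRB1 (-4.45, 0.0174) and 1 without a symbol (-3.31, 0.0417).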

How the results depend on the processing

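No alternative called a cluster for prednisolone on the arrays labelled BTG1 shRNA. The smallest adjusted p was 0.0789, with those 4 arrays fitted alone (470 clusters below an unadjusted p of 0.05). Over 2-fold, 38 clusters became 33 to 280 when 1 array was left out. The difference of effects called 24 clusters, against 14 after centring each array, 52 without the dimmest 25%, 8 without clusters that hold a value starting with 1, 11 with array weights and 0 to 24 with 1 array left out. The control effect called 271, against 93 with array weights and 40 to 770 with 1 array left out. The cause of these moves was not tested. Over 285 single genes and 4783 gene-by-alternative values on the arrays labelled BTG1 shRNA 0 were called, and 67 values in 49 genes had the opposite sign. Among the 64 genes with a difference of 0.5 or more in size, 2 had the opposite sign in an alternative, BNIP3 (0.06 without the second prednisolone array) and H2AC4 (-0.62, or 0.12 without the first).

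With the replicate number as a block, the difference of effects called 96 clusters and the control effect 755, and the arrays labelled BTG1 shRNA 0 (smallest adjusted p 0.404). Same-numbered arrays deviated together (correlation 0.26 across treatments on the arrays labelled BTG1 shRNA, 0.56 on the control arrays, and 0.43 and 0.42 across shRNAs under vehicle and prednisolone), but with 2 numbers this does not establish a pairing.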
